A study of Mus musculus with 12 samples.

Results

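Etoposide traps topoisomerase II on DNA and leaves double-strand breaks, and cells with such breaks normally stop before mitosis. The genes described here are 59 genes of the mitotic spindle, the kinetochore, the condensin complex and mitotic entry and exit, out of 32688 genes in the count table. They were taken from a list of symbols of genes with roles in mitosis, drawn up with earlier results of these data known. All 59 were found by gene identifier and all 59 passed the filter on low counts, with at least 28 counts in every library.

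The libraries are RNA-seq of RAW264.7, a mouse macrophage cell line. Null cells, which keep TFEB and TFE3, were compared with TFEB/TFE3 DKO cells, in which CRISPR was used against both of these stress-responsive transcription factors, which are best known for driving lysosomal and autophagy genes. Each line was left as control or given 100 µM etoposide for 8 h, with 3 libraries in each of the 4 groups (Null control, DKO control, Null etoposide, DKO etoposide). The control cells are untreated in the sample labels and DMSO-treated in the study's methods. All groups share the same parental line and medium, and each genotype is represented by 1 line, so a difference between genotypes and a difference between 2 lines cannot be told apart. The study describes the libraries of the etoposide groups as independent samples, but neither it nor the labels say whether the 3 libraries of a group came from separate cultures, so the p-values below measure the spread between these libraries. Levels are CPM values, each gene's count relative to the TMM-scaled total of its library, and a gene was called when its adjusted p in limma-trend, with Benjamini-Hochberg adjustment over the 18066 genes tested, was under 0.05.

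Mitosis needs several machines at once. Cdk1 with its cyclins, the Polo and Aurora kinases and the Cdc25 phosphatases start it, condensin compacts the chromosomes, kinetochores built on centromeric chromatin hold the spindle microtubules, and the spindle checkpoint delays anaphase until all kinetochores are attached. The anaphase-promoting complex with Cdc20 and Ube2c then frees separase to cut cohesin, and the central spindle directs cytokinesis. Most of these genes are transcribed late in the cell cycle, in part through the CHR, a short promoter element bound by the MuvB core. MuvB activates with B-Myb and FoxM1, and represses as part of the DREAM complex with pocket proteins and E2F4, for example after p53 raises p21. In bulk RNA, fewer cells near mitosis and less transcript per cell cannot be told apart.

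Promoters are shown for 5 of the genes because they span the range of the difference between lines described below: Cenpf and Plk1 with very large differences, Nuf2 with a very large difference and no CHR letters in the window, and Aurka and Bub3 with the smallest differences in their classes. Each window is the RefSeq promoter on build GRCm38.p6, 250 bases before to 50 after the gene's start, printed 5′ to 3′ on the gene's strand. Capitals mark TTTGAA, the CHR letters, on either strand. The windows are chr1:189688037-189688336 on the minus strand for Cenpf, chr7:122159185-122159484 on the plus strand for Plk1, chr1:169531415-169531714 on the minus strand for Nuf2, chr2:172370521-172370820 on the minus strand for Aurka and chr7:131560120-131560419 on the plus strand for Bub3, which has a further window.
Cenpf: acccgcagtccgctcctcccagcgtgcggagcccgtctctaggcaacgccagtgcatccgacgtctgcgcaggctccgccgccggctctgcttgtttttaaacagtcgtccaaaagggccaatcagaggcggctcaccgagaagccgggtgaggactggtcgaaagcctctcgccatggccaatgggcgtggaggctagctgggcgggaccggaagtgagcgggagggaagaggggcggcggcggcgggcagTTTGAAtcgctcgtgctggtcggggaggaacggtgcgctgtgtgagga
Plk1: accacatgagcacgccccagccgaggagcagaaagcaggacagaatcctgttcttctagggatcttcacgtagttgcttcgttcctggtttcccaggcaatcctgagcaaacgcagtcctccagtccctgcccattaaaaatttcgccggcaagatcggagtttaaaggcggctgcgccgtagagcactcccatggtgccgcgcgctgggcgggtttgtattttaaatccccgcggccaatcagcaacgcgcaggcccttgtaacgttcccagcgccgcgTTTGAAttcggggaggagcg
Nuf2: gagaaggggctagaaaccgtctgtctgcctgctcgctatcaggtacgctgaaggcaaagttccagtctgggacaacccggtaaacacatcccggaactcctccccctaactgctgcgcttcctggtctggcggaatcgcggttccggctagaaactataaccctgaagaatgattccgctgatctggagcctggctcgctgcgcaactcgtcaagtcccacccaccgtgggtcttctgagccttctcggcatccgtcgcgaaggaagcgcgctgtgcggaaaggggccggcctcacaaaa
Aurka: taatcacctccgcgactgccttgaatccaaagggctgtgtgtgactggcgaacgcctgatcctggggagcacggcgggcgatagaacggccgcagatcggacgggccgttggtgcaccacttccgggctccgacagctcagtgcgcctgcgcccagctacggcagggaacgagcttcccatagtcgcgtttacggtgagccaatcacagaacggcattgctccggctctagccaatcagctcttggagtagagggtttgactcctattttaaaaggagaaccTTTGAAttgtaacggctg
Bub3: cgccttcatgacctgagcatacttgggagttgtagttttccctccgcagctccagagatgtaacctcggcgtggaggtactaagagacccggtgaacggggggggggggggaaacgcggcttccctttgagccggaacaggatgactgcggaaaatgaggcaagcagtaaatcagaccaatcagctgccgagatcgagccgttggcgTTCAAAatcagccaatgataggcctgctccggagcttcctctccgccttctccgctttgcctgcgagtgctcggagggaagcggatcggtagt

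RefSeq promoter windows were matched for 48 of the 59 genes, in 52 windows since some genes have a pair of starts. TTTGAA stood on either strand in 37 of the 52 windows, or 71.2%, against 17.9% of all 32851 windows of the same length and 12.6% of the windows of genes tested. The windows of a pair overlap, so a match can count more than once. By gene, 33 of the 48 had TTTGAA in a window. In the stretch from 50 bases before the start to the end of the window, 33 of the 52 windows held it (63.5%), against 4.94% of all windows. The CHR variant TTTCGAA was found in 2 windows, those of Sgo1 and Cdc25b, or 3.85% against 0.746% of all windows and 0.942% of those of genes tested. CCAAT, the letters bound by the NF-Y factor, stood in 38 windows (73.1% against 37.4% of all windows and 37.5% of those of genes tested). CACGTG, the E-box letters that TFEB and TFE3 prefer, stood in 4 windows, those of Ttk, Espl1, Anln and Sgo1, a share of 7.69% against 7.15% of all windows and 9.61% of the windows of genes tested. None of the 4 motifs contains another. These matches describe the letters of the windows only.

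Before the comparisons, the libraries were checked. Totals ran from 29837255 to 61809316 counts, and 14.1% to 21.7% of the counts fell on genes of the mitochondrial genome. Tfeb, one of the targeted genes, was at 17.2, 16.6 and 16.8 CPM in Null control and 3.14, 4.83 and 5.24 CPM in DKO control libraries, and Tfe3 at 119, 105 and 89.4 against 31.5, 39.4 and 42.5 CPM. After etoposide Tfeb was at 7.62, 7.10 and 7.95 CPM in Null and 4.27, 4.30 and 4.44 CPM in DKO libraries, and Tfe3 at 103, 99.1 and 102 against 38.6, 34.2 and 40.4 CPM. Both targeted genes thus stood lower in every DKO library, without reaching 0. The titles of the DKO etoposide libraries hold the word MEFs, mouse embryonic fibroblasts. All 8 macrophage markers examined were detected in every group, with summed levels of 4192 to 5130 CPM. The lowest level of any of these markers in a single library was 4.717 CPM in the DKO etoposide group. In the other groups it was 66.9 CPM (Null control), 28.41 CPM (DKO control) and 36.27 CPM (Null etoposide). No single fibroblast marker of 8 passed 1.38 CPM, and Null etoposide libraries held the most of the fibroblast markers.

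The control libraries and the DKO etoposide libraries varied along a shared direction that the groups do not explain. The first principal component of the deviations from the group means held 43.1% of the within-group variance over all genes tested. Null control replicate 1 (score 0.46) and DKO control replicates 2 and 3 (0.18 and 0.38) lay at one end and Null control replicate 3 (−0.39) and DKO control replicate 1 (−0.56) at the other, with DKO etoposide replicates 3 and 2 at 0.27 and −0.26 and the Null etoposide libraries between −0.04 and 0.03. Many of the mitotic genes moved with it, in both directions. The deviations of Plk1, Cdc20 and Bub1b correlated with the scores at 0.95, −0.91 and −0.98, and those of Cenpe and Pttg1 at −0.07 and −0.05. Tpx2, which targets Aurora A to the spindle, was at 679, 530 and 397 CPM in Null control and at 388, 744 and 804 CPM in DKO control libraries. Spc25, a subunit of the NDC80 complex, went the other way, with 15.1, 24.8 and 30.5 CPM in Null control and 28.5, 15.2 and 13.0 CPM in DKO control libraries. The share of counts on mt-Rnr2, a gene of the mitochondrial genome, fell as the score rose in the control and DKO etoposide groups. In replicates 1, 2 and 3 it was 10.78%, 13.84% and 15.68% in Null control and 15.01%, 13.17% and 12.39% in DKO control libraries. It was 13.74%, 15.1% and 13.3% in DKO etoposide libraries. In Null etoposide libraries, at 17.9%, 16.33% and 17.85%, it did not fall as the score rose. The 2 RNA extraction kits named in the protocol are not assigned to libraries in the labels. Neither their part nor that of the mt-Rnr2 share in this spread was tested.

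**Figure D1:**
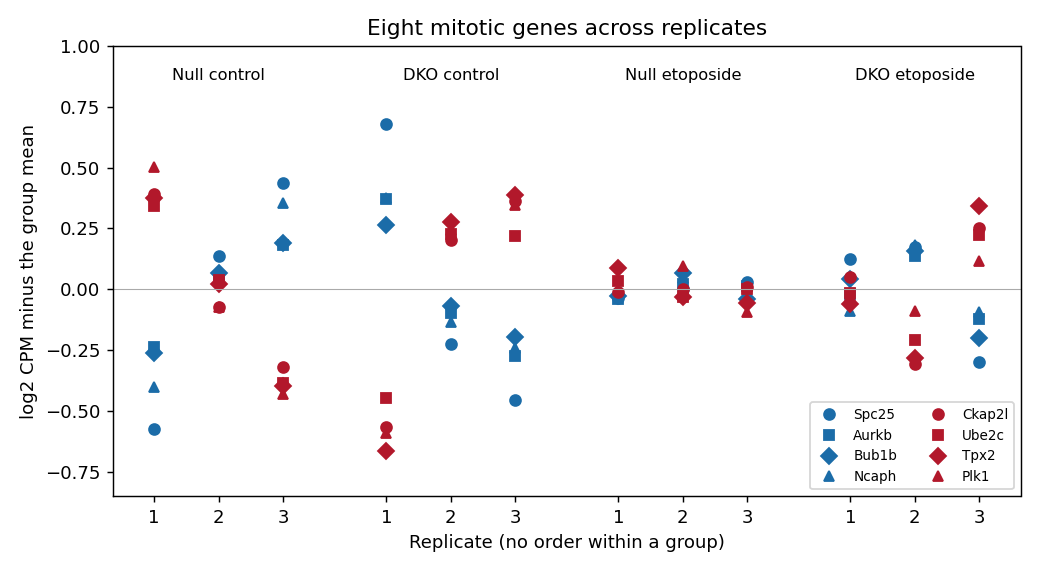
Each point is 1 library's log2 CPM minus its group's mean (vertical axis) for 8 mitotic genes chosen after their values were seen, by group and replicate number (horizontal axis, with no order within a group). Spc25, Aurkb, Bub1b and Ncaph (blue) and Ckap2l, Ube2c, Tpx2 and Plk1 (red) deviated in opposite directions in the control and DKO etoposide libraries, while in the Null etoposide libraries all 8 stayed close to 0.

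The first comparison asks how Null macrophages changed these genes after etoposide. Of the 59 genes, 48 were called lower and 0 higher, where 18.7% of all genes tested were called lower and 20.9% higher, and the median log2 difference was −0.67 against 0.03 over all genes tested. The falls were partial. The mean level after etoposide was between 35.1% of control in Pimreg and 143% in Spc25, with a median of 62.6%, and 8 genes kept less than 50% of control. The 3 etoposide libraries lay below all 3 control libraries for 56 of the 59 genes, where 24.9% of all genes did so.

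Pimreg, Bub1b (the checkpoint protein BubR1), Racgap1 (a subunit of centralspindlin) and Anln (the cytokinetic scaffold anillin) had the lowest log2 differences in Null cells: −1.51 ± 0.127 (SE), −1.43 ± 0.138, −1.33 ± 0.0905 and −1.27 ± 0.0746, with adjusted p between 5.39e-06 and 7.95e-08 in limma-trend. The 11 genes not called in Null cells were Cdc20, Ube2c, Aurkb, Bub1, Bub3, Cenpe, Spc24, Spc25, Cenpw, Spag5 and Troap, with log2 differences from −0.46 to 0.57. Spc25 alone had a positive estimate and stood higher in every etoposide library (32.7, 33.5 and 34.2 CPM) than in every control library, yet its control libraries were spread along the direction described above, and its adjusted p was 0.137 in limma-trend. Cdc20 and Bub1 overlapped between control and etoposide libraries. Some of these calls depend on the method. Ube2c was called lower with DESeq2 (adjusted p = 0.0476), while the call of Ncaph was lost in 12 of the other fits, 8 of which left out a library, and those of Mad2l1 and Cdc25c in 4 and 3 fits that left out a library.

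In DKO macrophages the same treatment left far less. All 59 genes were called lower, where 19.1% of all genes tested were and 20.2% were called higher, and the median log2 difference was −3.13 against 0.03 over all genes. The mean level fell to between 2.13% of control in Cenpf and 80.4% in Bub3, with a median of 11.2%. Under 10% of the control level was left for 28 genes and under 5% for 13 of them, while in Null cells 0 genes fell under 10%. The 13 genes under 5% were Plk1, Cdc25c, Nek2, Birc5, Ttk, Cenpf, Nuf2, Ska1, Hmmr, Aspm, Nusap1, Depdc1a and Pimreg. For every one of the 59 genes the 3 DKO etoposide libraries lay below the 3 DKO control libraries, where 22.2% of all genes did so.

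The summed level of the 59 genes was 8049, 8011 and 8017 CPM in Null control libraries and 7272, 7787 and 8059 CPM in DKO control libraries. After etoposide it was 4777, 4638 and 4610 CPM in Null and 1118, 1093 and 1167 CPM in DKO libraries. The control groups overlapped, with means of 8026 ± 20.8 (SD, n = 3) and 7706 ± 399.9, and the etoposide groups, at 4675 ± 89.6 and 1126 ± 38.1, did not. By the means of the control groups, though not in every library per kilobase, Mki67 was the most abundant of the genes both in CPM and in CPM per kilobase. It held 1616 CPM of the Null control mean.

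**Figure D2:**
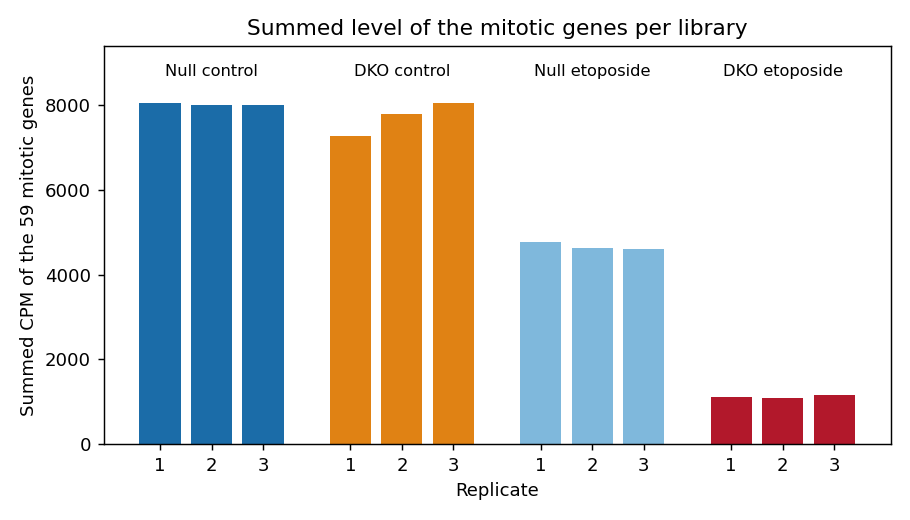
Bars give the summed CPM of the 59 mitotic genes (vertical axis, from 0) in each library, by group and replicate. The 6 control libraries sit between 7272 and 8059 CPM, the Null etoposide libraries between 4610 and 4777 and the DKO etoposide libraries between 1093 and 1167.

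Without drug few genes were called. In DKO against Null control cells, 6 genes were called lower, where 8.4% of all genes tested were, and 1 gene higher, where 10.9% were. The share called lower was near that of all genes tested. The median log2 difference was −0.10 against 0.00 over all genes. By sign, 47 of the 59 estimates were negative, where 9056 of the 18066 genes tested were. Lower in DKO cells were Incenp (−0.21), Knl1 (−0.31), Espl1 (−0.26), Sgo1 (−0.37), Cdca2 (−0.31) and Pimreg (−0.44). Anln was higher, by 0.78 ± 0.0746 on the log2 scale (adjusted p = 7.87e-06, limma-trend), with 325, 320 and 327 CPM in DKO control against 176, 191 and 199 CPM in Null control libraries. The control libraries of the lines overlapped for 50 of the 59 genes, while DKO libraries all lay below for 8, where 13.3% of all genes tested did so, and above for 1, where 14.3% did so.

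These control calls depend on the processing and on single libraries. The count of genes lower was 14 with DESeq2, where 10.1% of all genes tested were called lower, and 14 with library size alone as the scaling, where 11.4% were. It was 3 without a filter on low counts (4.07% of all genes), 3 with a replicate block (7.19%) and 2 with only the control groups in the model (5.37%). The count of 6 became 11 without Null control replicate 1, 13 without DKO control replicate 1, 1 without Null control replicate 2, Null control replicate 3 or DKO control replicate 2, 2 without DKO control replicate 3, and 3 without Null etoposide replicate 3. Anln and Cdca2 were called under every such removal. The shared direction of the libraries is widest in the control groups. With each library's score on it as a covariate, a choice made after seeing the data, 21 genes were called lower and 7 higher, where 17.8% of all genes tested were called lower, but a covariate taken from the residuals lowers the spread by construction.

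After etoposide the lines stood far apart. DKO libraries were called lower for 58 of the 59 genes, where 17.8% of all genes tested were, and 55 of them had a log2 difference of −1 or lower, where 8.18% did. The median log2 difference was −2.71 against −0.01 over all genes. All 3 DKO libraries lay below all 3 Null libraries for 58 genes, where 28.1% of all genes did so, and Bub3 was the exception in both counts. This comparison shares its Null etoposide and DKO etoposide libraries with the 2 responses above, so it is no separate evidence.

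Whether the lines responded differently was tested by the interaction, the response to etoposide in DKO cells minus that in Null cells. It was called lower for 57 of the 59 genes, where 6.39% of all genes tested were called lower and 3.07% higher, and 54 had an estimate of −1 or lower, where 3.56% did. The median was −2.55 against −0.01 over all genes, and the estimates ran from −4.53 in Cenpf to −0.16 in Bub3. Cenpf had the lowest estimate of all 18066 genes tested, and 13 of the 20 and 29 of the 100 lowest estimates belonged to the 59 genes, a description only, since the list was made with earlier results known. The 2 genes not called were Cenpw, at −0.92 ± 0.32 (adjusted p = 0.106), and Bub3, at −0.16 ± 0.124 (adjusted p = 0.567, both limma-trend). Over the 59 genes the responses of the lines, which share no library but were normalised together, had Pearson's r of 0.51 and Spearman's rank correlation of 0.51, across genes that are not independent replicates.

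**Figure D3:**
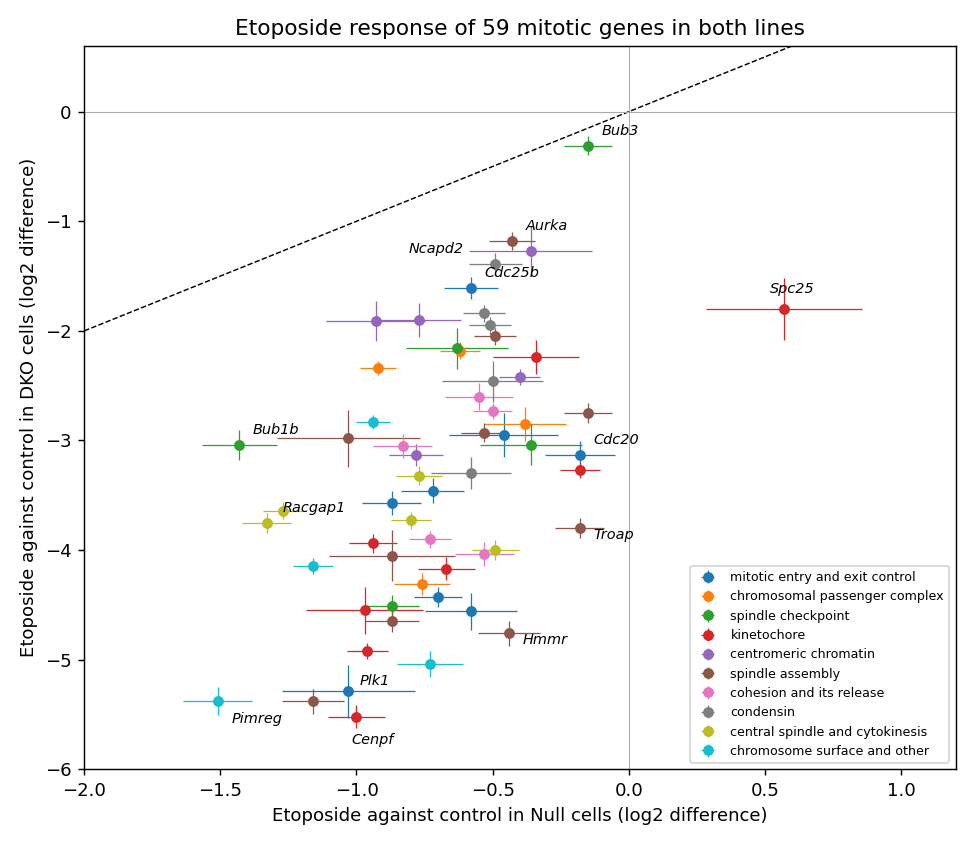
Each point is a mitotic gene, with the log2 difference of etoposide against control in Null cells on the horizontal axis and in DKO cells on the vertical axis, bars for the standard error, colours for the class and a dashed line where both responses are equal. All 59 points lie below the dashed line, from Bub3 close to it to Cenpf far below it.

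Among the 8 genes that control entry into and exit from mitosis, the median interaction was −2.84 and all 8 were called. Plk1, the Polo kinase of centrosome maturation, mitotic entry and cytokinesis, was at 129, 86.2 and 67.2 CPM in Null control and 73.4, 131 and 141 CPM in DKO control libraries. After etoposide it was at 44.3, 47.5 and 41.6 CPM in Null and 2.73, 2.61 and 3.01 CPM in DKO libraries. Its control libraries were spread and overlapped, and its DKO etoposide libraries were an order of magnitude below every other, with an interaction of −4.26 ± 0.346 (adjusted p = 4.72e-06, limma-trend).

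Cdc25c and Nek2 followed Plk1, with interactions of −3.98 and −3.73. Cdc25c is a phosphatase that activates Cdk1, and Nek2 a kinase of centrosome separation. Cdc25b, another Cdk1-activating phosphatase, had the highest estimate of the class, at −1.03 ± 0.139 (adjusted p = 0.000389, limma-trend). It was at 41.2, 45.1 and 44.1 CPM in Null control and 53.4, 43.2 and 41.6 CPM in DKO control libraries, and at 26.5, 29.3 and 31.1 CPM in Null and 14.79, 14.95 and 14.99 CPM in DKO etoposide libraries. DKO cells thus kept 32.4% of its control level where they kept 2.42% of that of Plk1.

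Cdc20, the activator that gives the anaphase-promoting complex its mitotic substrates, was not called in Null cells. It was at 91.1, 102 and 109.7 CPM in Null control and 85.7, 93.0 and 87.4 CPM in Null etoposide libraries, which overlapped (log2 difference −0.18 ± 0.129, adjusted p = 0.291, limma-trend). In DKO cells it went from 128, 101 and 88.0 CPM to 13.0, 12.3 and 10.4 CPM, groups that did not overlap, and its interaction was −2.95 ± 0.182. Ube2c, the ubiquitin-conjugating enzyme of the same complex, had an interaction of −2.48, Cdca3, a mitotic entry protein, of −2.71, and the kinase Melk of −2.74.

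The chromosomal passenger complex, which corrects faulty kinetochore attachments, had 4 of 4 genes called and a median interaction of −2.02. Birc5, or survivin, was at 71.4, 77.1 and 85.6 CPM in Null control and 76.5, 62.4 and 62.0 CPM in DKO control libraries. After etoposide it was at 45.1, 47.0 and 45.4 CPM in Null and 3.20, 3.10 and 3.65 CPM in DKO libraries, so the lines overlapped without drug and were far apart with it (interaction −3.55 ± 0.144, adjusted p = 1.02e-08, limma-trend). Its partners had estimates closer to 0. Incenp, the scaffold of the complex, was at 144, 139 and 148 CPM in Null control, 130.3, 117 and 124.5 CPM in DKO control, 75.4, 76.7 and 74.9 CPM in Null etoposide and 24.9, 22.9 and 25.2 CPM in DKO etoposide libraries. No pair of these 4 groups overlapped, and the interaction of Incenp was −1.42 ± 0.0936.

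Aurkb, the kinase of the passenger complex, was at 58.6, 71.8 and 78.3 CPM in Null control and 51.7, 53.9 and 53.7 CPM in Null etoposide libraries. Its Null groups did not overlap, although the difference was not called (−0.38 ± 0.151, adjusted p = 0.0643, limma-trend). It was called with DESeq2 (adjusted p = 0.0332), with only the Null groups in the model (0.0192) and in 3 of the 12 fits that left out a library. In DKO cells it was at 65.0, 47.0 and 41.6 CPM before and 6.85, 7.62 and 6.38 CPM after etoposide, and its interaction was −2.47 ± 0.213. Borealin, encoded by Cdca8, had an interaction of −1.57.

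The spindle checkpoint had 4 of 5 genes called and a median interaction of −1.61. Ttk, the kinase Mps1 at the top of the checkpoint, was at 46.6, 56.3 and 56.4 CPM in Null control and 47.7, 43.5 and 42.2 CPM in DKO control libraries. Etoposide left 29.0, 29.5 and 28.2 CPM in Null and 1.74, 2.12 and 1.84 CPM in DKO libraries, well apart, with an interaction of −3.64 ± 0.141 (adjusted p = 6.44e-09, limma-trend). The kinase Bub1 followed at −2.67, BubR1 (Bub1b) at −1.61 and Mad2l1, which encodes the Cdc20 inhibitor Mad2, at −1.53.

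Bub3, the WD-repeat protein that carries Bub1 and BubR1 to kinetochores, was the exception. It was at 182, 193 and 165 CPM in Null control and 177, 219 and 207 CPM in DKO control libraries, and at 159.8, 164 and 161 CPM in Null and 164, 153 and 167 CPM in DKO etoposide libraries. The etoposide libraries of the lines overlapped, with a log2 difference of 0.00 ± 0.0876 and a 95% interval from −0.17 to 0.17. In DKO cells it was still called lower than control, by −0.31 ± 0.0876 (adjusted p = 0.0138, limma-trend), a call that was lost without DKO control replicate 2 (adjusted p = 0.0754) and without DKO etoposide replicate 2 (0.0663), and also with only the DKO groups in the model (0.0537). Its promoter window, printed above, holds the CHR letters on the opposite strand.

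Kinetochore genes had the lowest median interaction of the classes with 5 or more genes, −3.29, and 8 of 8 were called. Cenpf, a microtubule-binding protein of the outer kinetochore, was at 162, 146 and 148 CPM in Null control and 132, 148 and 170.1 CPM in DKO control libraries. After etoposide it was at 81.4, 70.6 and 76.3 CPM in Null and 3.29, 2.83 and 3.47 CPM in DKO libraries. Controls overlapped and DKO etoposide libraries held 4.20% of the Null etoposide level, with an interaction of −4.53 ± 0.149 (adjusted p = 2.82e-09, limma-trend).

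Members of the NDC80 complex, the main microtubule clamp, did not move as one. Nuf2 and Ndc80 had interactions of −3.95 and −3.49, Spc25 of −2.37 and Spc24 of −1.91. Spc24 was at 25.9, 29.3 and 36.7 CPM in Null control and 47.0, 30.9 and 32.4 CPM in DKO control libraries, and at 23.7, 24.3 and 23.9 CPM in Null and 7.47, 8.31 and 7.02 CPM in DKO etoposide libraries. Its control groups overlapped and its etoposide groups did not (interaction −1.91 ± 0.224, adjusted p = 0.000125, limma-trend). The microtubule coupler Ska1 had an interaction of −3.59, the kinesin Cenpe of −3.09 and Knl1, the platform for Bub1, of −3.01. Cenpe kept 88.8% of its control level in Null and 10.4% in DKO cells.

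Genes of centromeric chromatin, on which the kinetochore is built, had a median interaction of −1.13, the closest to 0 of the 10 classes, and 4 of 5 were called. Cenpn, which reads the centromeric nucleosome, was lowest at −2.35 ± 0.14 (adjusted p = 2.81e-07, limma-trend), with 35.3, 41.5 and 40.9 CPM in Null control, 36.7, 31.2 and 29.6 CPM in DKO control, 22.4, 22.2 and 23.9 CPM in Null etoposide and 3.47, 3.85 and 3.63 CPM in DKO etoposide libraries. Cenpa, the histone H3 variant of the centromere, followed at −2.02. Cenpl and Cenpm, further inner kinetochore subunits, were at −1.13 and −0.98, and the call of Cenpm was lost in 9 of the 12 fits that left out a library.

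Cenpw, a histone-fold subunit, was the least abundant of the genes in control cells, both in CPM and in CPM per kilobase. It was at 5.41, 6.22 and 8.35 CPM in Null control, 8.21, 5.17 and 5.21 CPM in DKO control, 4.76, 5.30 and 5.27 CPM in Null etoposide and 1.84, 3.04 and 2.68 CPM in DKO etoposide libraries. DKO etoposide libraries lay below all others, and DKO was called lower than Null after etoposide (−1.03 ± 0.226, adjusted p = 0.00359, limma-trend), while the interaction, as given above, was not called.

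Spindle assembly genes, 10 in number, were all called in the interaction, with a median of −2.89. Hmmr, a spindle-pole protein, was at 91.2, 99.1 and 117 CPM in Null control and 111.3, 94.3 and 97.8 CPM in DKO control libraries. With etoposide it was at 79.5, 71.7 and 74.7 CPM in Null and 4.09, 3.74 and 3.21 CPM in DKO libraries, far apart after overlapping controls (interaction −4.32 ± 0.159, adjusted p = 4.17e-09, limma-trend). Aspm, which organises spindle poles, was at −4.22, Nusap1 at −3.78, Troap at −3.62 and Ckap2l at −3.19, all microtubule-associated proteins. Troap was not called in Null cells, where 88.6% of control was left, and fell to 6.97% in DKO cells.

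Aurka, the Aurora A kinase of the spindle poles, was at the other end of this class. Its levels were 107, 120.1 and 119.7 CPM in Null control and 121, 114 and 105 CPM in DKO control libraries, and 85.5, 92.2 and 80.2 CPM in Null and 53.1, 50.7 and 46.4 CPM in DKO etoposide libraries. The etoposide groups did not overlap, but DKO cells kept 44.2% of control, and the interaction was −0.75 ± 0.12 (adjusted p = 0.00148, limma-trend). Its activator Tpx2 was at −1.96, its substrate Tacc3 at −1.57, the astrin gene Spag5 at −2.59 and Dlgap5, a kinetochore-fibre stabiliser, at −2.40.

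Cohesion and its release were covered by 5 genes, all called, with a median interaction of −2.23. Esco2, the acetyltransferase that locks cohesin onto sister chromatids, was lowest, with 49.2, 62.4 and 65.5 CPM in Null control, 50.7, 47.7 and 46.6 CPM in DKO control, 41.8, 41.2 and 39.1 CPM in Null etoposide and 2.82, 2.64 and 3.19 CPM in DKO etoposide libraries (interaction −3.52 ± 0.154, adjusted p = 1.83e-08, limma-trend). Cdca5, or sororin, which protects that cohesin, was highest, at −2.05 ± 0.179. It was at 24.2, 32.3 and 31.3 CPM in Null control, 23.9, 21.5 and 21.3 CPM in DKO control, 18.7, 22.3 and 18.6 CPM in Null etoposide and 3.597, 3.987 and 3.271 CPM in DKO etoposide libraries. For both genes the DKO etoposide libraries lay far below every other library. Separase (Espl1) was at −3.17, its inhibitor securin (Pttg1) at −2.23 and shugoshin (Sgo1) at −2.23.

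Condensin genes had a median response of −1.95 in DKO cells and a median interaction of −1.44, with 5 of 5 called. Ncapg, a subunit that binds DNA, was at 79.4, 103 and 120.2 CPM in Null control, 105, 76.3 and 80.1 CPM in DKO control, 68.9, 65.0 and 66.0 CPM in Null etoposide and 8.503, 9.46 and 8.103 CPM in DKO etoposide libraries. Its controls overlapped, its etoposide groups did not, and its interaction was −2.73 ± 0.207 (adjusted p = 2.47e-06, limma-trend). The kleisin Ncaph was at −1.96. The ATPases Smc4 and Smc2, which condensin I and II share, were at −1.44 and −1.31, and kept 25.8% and 27.9% of control in DKO cells.

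Ncapd2 had the highest estimate of the condensin genes, −0.90 ± 0.137 (adjusted p = 0.00109, limma-trend). It was at 487, 470.0 and 411 CPM in Null control, 383, 475 and 493 CPM in DKO control, 332, 324 and 315 CPM in Null etoposide and 172, 168 and 173 CPM in DKO etoposide libraries. The etoposide groups stood apart from each other and from the controls. Its exons overlap in part with Scarna10, a small RNA gene, and with Gm28967, both on the same strand. At the read density of Gm28967 the shared bases would hold up to 61.0% of the counts of Ncapd2 in DKO etoposide libraries and up to 31.1% in Null control libraries, and at that of Scarna10 up to 53.2% and 27.1%. The part of those reads in the level of Ncapd2 was not tested.

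Cytokinesis genes moved within a narrow range, with interactions from −3.52 to −2.37 around a median of −2.55. Cep55, the midbody organiser of abscission, was at 73.4, 82.6 and 87.2 CPM in Null control, 73.9, 66.6 and 68.8 CPM in DKO control, 59, 56.55 and 57.74 CPM in Null etoposide and 4.12, 4.02 and 4.75 CPM in DKO etoposide libraries (interaction −3.52 ± 0.124, adjusted p = 3.13e-09, limma-trend). Prc1, which bundles central spindle microtubules, was at −2.93, Ect2 at −2.55 and its recruiter Racgap1 at −2.42. Anln was at 84.0, 77.4 and 73.4 CPM in Null and 25.1, 25.2 and 27.8 CPM in DKO etoposide libraries, so that it stood above Null without drug, as given above, and below it after etoposide (interaction −2.37 ± 0.106). DKO cells kept 33.2% of the Null etoposide level of Anln and 7.44% of that of Cep55.

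In the last class, Depdc1a was lowest at −4.31 ± 0.169 (adjusted p = 6.76e-09, limma-trend). It was at 18.9, 25.2 and 24.1 CPM in Null control, 24.7, 27.1 and 26.4 CPM in DKO control, 13.6, 14.8 and 12.5 CPM in Null etoposide and 0.799, 0.699 and 0.707 CPM in DKO etoposide libraries. Cdca2, or Repo-Man, which brings a phosphatase to chromatin at anaphase, was highest at −1.89 ± 0.0898, with 137, 145 and 138 CPM in Null control, 116, 113 and 109 CPM in DKO control, 72.4, 76.3 and 70.9 CPM in Null etoposide and 15.2, 15.8 and 16.6 CPM in DKO etoposide libraries. None of the 4 groups of Cdca2 overlapped, while the control groups of Depdc1a did. Pimreg was at −3.87.

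Mki67, which coats mitotic chromosomes and is the Ki-67 proliferation marker, was at 1664, 1551 and 1633 CPM in Null control and 1307, 1389 and 1490.0 CPM in DKO control libraries. After etoposide it was at 755, 693 and 726 CPM in Null and 76.5, 76.7 and 82.2 CPM in DKO libraries. Every DKO control library lay below every Null control library, although this difference was not called (−0.21 ± 0.073, adjusted p = 0.0614, limma-trend), and the interaction was −2.99 ± 0.103.

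**Figure D4:**
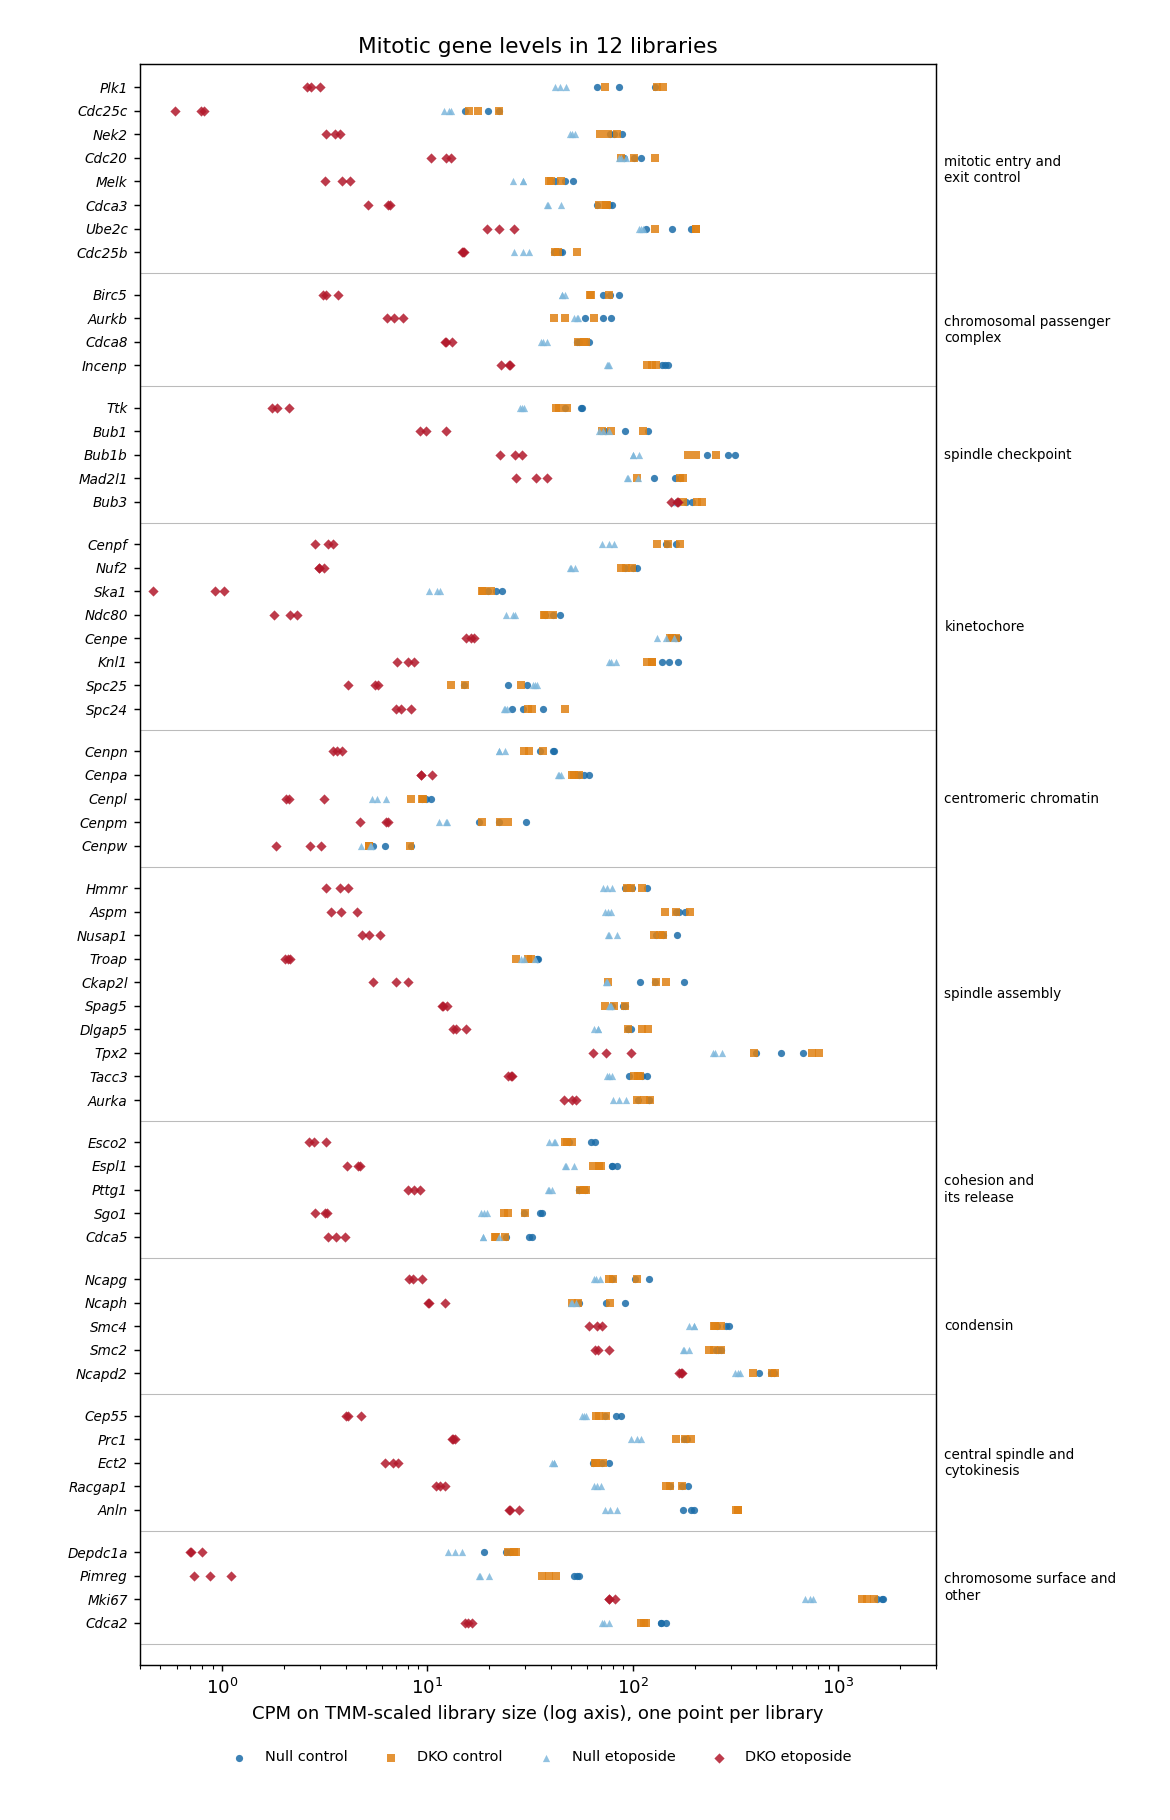
Each row is a mitotic gene, grouped by class, with 1 point per library on a log axis of CPM and colours and shapes for the 4 groups. DKO etoposide libraries (red diamonds) lie apart and to the left in every row but that of Bub3, where they overlap with Null etoposide libraries.

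The interaction was only weakly related to the length or level of a gene. Across the 59 genes Pearson's r was −0.14 with log2 gene length and 0.11 with the log2 level per kilobase in Null control cells, with Spearman's rank correlation of −0.17 and 0.19. The 33 genes with TTTGAA in a promoter window had a median interaction of −2.59 and the 15 matched genes without it −2.67. With it the interactions ran from −4.53 in Cenpf to −0.16 in Bub3, and without it from −3.95 in Nuf2 to −0.98 in Cenpm. Sgo1 and Cdc25b, which hold the variant TTTCGAA, are among the genes without it. With either form the median was −2.55 in 35 genes and without both −2.74 in 13. Other spellings of the CHR were not searched, so genes counted as without it may hold one. With CCAAT the median was −2.59 in 35 genes and without it −2.74 in 13.

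Further mitotic genes were listed as 66 components not included above. In the interaction 34 of 66 were called lower and 0 higher, with a median of −0.45, where 6.39% and 3.07% of all genes tested were. Their DKO response had 49 called lower and 4 higher, against 19.1% and 20.2% of all genes tested, with a median of −1.12. Cyclins and Cdk1 had all 4 genes called and a median of −3.10. Cyclin B2, or Ccnb2, was at 144, 140.3 and 134 CPM in Null control, 135, 158 and 186 CPM in DKO control, 62.1, 60.8 and 62.4 CPM in Null etoposide and 4.09, 2.90 and 3.63 CPM in DKO etoposide libraries (interaction −4.30), and Cdk1, at −2.05, was the highest of the 4.

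Medians of the other classes of that list ran from −1.79 to 0.09. For the anaphase-promoting complex, 1 of 15 genes was called, a share near the 6.39% of all genes tested that were called lower. It was Cdc23, at −1.50 ± 0.102 (adjusted p = 8.51e-07, limma-trend), and the median was 0.09, with Cdc26 highest at 0.35 and not called. Cohesin and its regulators had 2 of 12 called, Sgo2a at −3.05 and Rad21 at −0.97, and a median of −0.03, with Stag1 highest at 0.26 and not called. Stag1, a core cohesin subunit, fell in both lines, to 27.8% of control in Null and 33.5% in DKO cells. Condensin II had 3 of 3 called, from Ncapg2 at −1.66 to Ncaph2 at −0.46.

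A class of MIS12, ROD-ZW10 and further kinetochore genes, Ska2 and Ska3 among them, had 8 of 11 called and a median of −1.79. Its estimates ran from Ska3 at −2.44 to Zwint at 0.02, the latter not called. Ska3 was at 24.1, 28.0 and 29.0 CPM before and 28.4, 27.8 and 26.4 CPM after etoposide in Null libraries, which overlapped, and fell in DKO cells from 27.4, 27.0 and 26.9 to 5.16, 5.30 and 4.68 CPM. Other centromere genes had 13 of 16 called with a median of −1.18, from Oip5 at −2.22 to Cenpb at 0.32. A mixed class of checkpoint genes and other mitotic regulators had 3 of 5 called with a median of −0.61, from Haspin at −1.58 to Mad1l1 at 0.25. Cenpb and Mad1l1 were not called.

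DNA replication genes, which peak earlier in the cycle, had 30 of 42 called lower in the interaction and 0 higher, with a median of −0.78. In DKO cells all 42 were called lower after etoposide, where 19.1% of all genes tested were, with a median of −1.40, and in Null cells 33 were, where 18.7% of all were, with a median of −0.51. Rrm2, a ribonucleotide reductase subunit, and Mcm10, a replication initiation factor, had the lowest interactions of that list, at −2.48 and −2.14, and Prim2 and Rfc1, a primase and a clamp loader subunit, the highest, at −0.05 and −0.11, neither called.

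**Figure D5:**
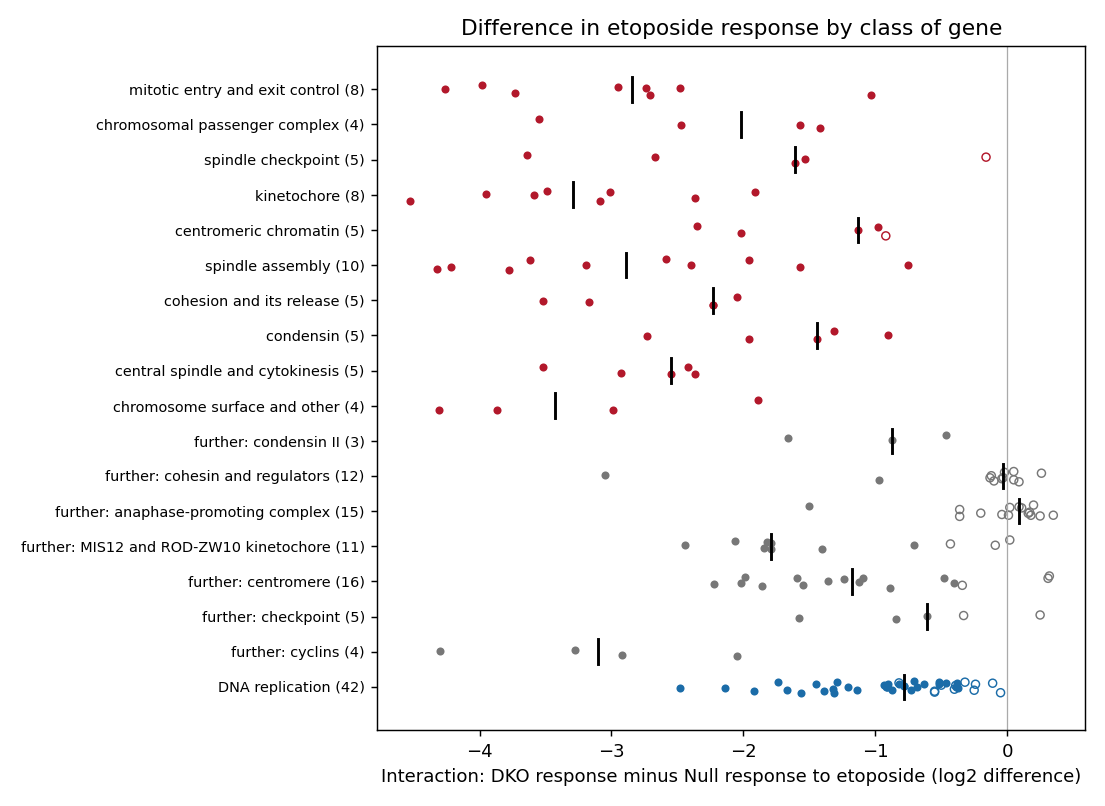
Points give the interaction of each gene (horizontal axis, log2 difference) by class, with the number of genes in parentheses, filled where called and open where not, and black bars for class medians. Medians of the 10 classes of the 59 genes (red) lie from −3.43 to −1.13, those of the anaphase-promoting complex and of cohesin and its regulators at 0.09 and −0.03, and that of DNA replication (blue) at −0.78.

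The activators of CHR genes responded differently in the lines too. Foxm1 was at 150.0, 129 and 101 CPM in Null control, 96.1, 132 and 131 CPM in DKO control, 62.8, 61.1 and 60.6 CPM in Null etoposide and 19.6, 16.1 and 20.5 CPM in DKO etoposide libraries (interaction −1.64 ± 0.215, adjusted p = 0.000325, limma-trend). Mybl2, which encodes B-Myb, had 98.4, 88.3 and 79.0 CPM, 83.2, 99.4 and 97.5 CPM, 61.7, 65.1 and 59.2 CPM and 17.95, 15.32 and 17.54 CPM in the same groups (−1.95 ± 0.142). For both genes the control groups overlapped and the etoposide groups did not. Of the 16 regulators listed, 7 were called lower in the interaction and 0 higher, where 6.39% and 3.07% of all genes tested were, with a median of −0.37.

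Cdkn1a, which encodes p21, rose in both lines, from 53.2, 49.99 and 41.4 to 394, 386 and 396 CPM in Null and from 90.1, 119 and 112 to 339, 285 and 340 CPM in DKO libraries. Its response was smaller in DKO cells (interaction −1.44 ± 0.168, adjusted p = 0.000118, limma-trend), which started higher, and its etoposide levels were not called different between lines (−0.29 ± 0.119, adjusted p = 0.0779). Trp53, which encodes p53, was called in none of the 5 comparisons. Its libraries were spread along the shared direction described above, at 609, 382 and 264 CPM in Null control and 269, 619 and 750 CPM in DKO control libraries.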

How the data were processed

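RNA of Null and TFEB/TFE3 DKO RAW264.7 cells, control or with 100 µM etoposide for 8 h, was sequenced by the authors as 12 libraries. The authors deposited unnormalised whole-number counts for each gene. Per the labels and the study's methods, reads were aligned with HISAT2 to mm10 and uniquely mapped pairs were counted on GENCODE genes. The counter is HTSeq in the methods and featureCounts in the submitters' processing notes, and whether strand was used in counting is not given in the sources used here. The 32688 gene identifiers were matched to symbols for 32501 (99.4%), with exon lengths from GENCODE M21 on GRCm38.

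Counts were scaled by TMM (factors 0.939 to 1.03) and genes kept by filterByExpr (18066, with 99.96% of counts). Log2 CPM with a prior count of 3 was fitted by limma-trend with robust empirical Bayes (limma 3.58.1, edgeR 4.0.16, R 4.3.3) in 1 model over the 12 libraries with a mean per group. Limma-trend is also the method the authors name, without giving their model. Genes were called at an adjusted p under 0.05, Benjamini-Hochberg over all genes tested, in 5 contrasts. Values are given as estimate ± standard error, and percentages of control as ratios of mean CPM. The fitting step was first tested on simulated counts. Replicates were compared in pairs and each pair differed by more than counting noise.

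The 59 genes, their 10 classes and the further lists were chosen with earlier results of these data known, so no set test was run and no p is given for a list. In each class the lowest and highest interaction estimates are given in every library, with Plk1, Aurkb, Birc5, Cdc20, Mki67, Bub3 and genes not called. Of the further lists, the lowest and highest of each class of mitotic genes, the 2 lowest and 2 highest replication genes and Foxm1, Mybl2, Cdkn1a and Trp53 are named, and Rad21 was added after its values were seen. Alternatives were edgeR's quasi-likelihood test, DESeq2 1.42.0, other scalings, no filter, another prior count, only the groups compared, a replicate block and each library left out. Exons of some of the genes overlap other genes. At the partner's read density the shared bases would hold at most 12.0% of a gene's counts where the partner lies on the opposite strand (Cdc20 and Prc1 after etoposide in DKO cells), and more for Ncapd2, whose overlap is given with its values.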

Additional observations from a re-analysis of the deposited data

Results flagged for a closer look

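The response to etoposide differed between Null and DKO cells in 57 of the 59 mitotic genes, as tested by the interaction term in limma-trend with Benjamini-Hochberg adjustment over all genes tested. Each value below is the log2 response in DKO cells minus that in Null cells. Among entry and exit genes the difference was −4.26 in Plk1, −3.98 in Cdc25c, −3.73 in Nek2, −2.95 in Cdc20, −2.74 in Melk, −2.71 in Cdca3, −2.48 in Ube2c and −1.03 in Cdc25b. In the passenger complex it was −3.55 in Birc5, −2.47 in Aurkb, −1.57 in Cdca8 and −1.42 in Incenp. For checkpoint genes other than Bub3 it was −3.64 in Ttk, −2.67 in Bub1, −1.61 in Bub1b and −1.53 in Mad2l1. Kinetochore genes had differences of −4.53 in Cenpf, −3.95 in Nuf2, −3.59 in Ska1, −3.49 in Ndc80, −3.09 in Cenpe, −3.01 in Knl1, −2.37 in Spc25 and −1.91 in Spc24. In centromeric chromatin, Cenpw apart, it was −2.35 in Cenpn, −2.02 in Cenpa, −1.13 in Cenpl and −0.98 in Cenpm. Spindle assembly genes had −4.32 in Hmmr, −4.22 in Aspm, −3.78 in Nusap1, −3.62 in Troap, −3.19 in Ckap2l, −2.59 in Spag5, −2.40 in Dlgap5, −1.96 in Tpx2, −1.57 in Tacc3 and −0.75 in Aurka. Genes of cohesion and its release had −3.52 in Esco2, −3.17 in Espl1, −2.23 in Pttg1, −2.23 in Sgo1 and −2.05 in Cdca5. Condensin subunits had −2.73 in Ncapg, −1.96 in Ncaph, −1.44 in Smc4, −1.31 in Smc2 and −0.90 in Ncapd2. Cytokinesis genes had −3.52 in Cep55, −2.93 in Prc1, −2.55 in Ect2, −2.42 in Racgap1 and −2.37 in Anln. The remaining genes had −4.31 in Depdc1a, −3.87 in Pimreg, −2.99 in Mki67 and −1.89 in Cdca2. All 57 were negative.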

How the results depend on the processing

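Under the alternatives the counts of the 59 mitotic genes called after etoposide kept within 1.5 times the reported ones, except as listed here, and no estimate of a called gene changed sign. Requiring an absolute log2 difference of at least 1 left 8 genes lower in the Null response, and 0 lower and 0 higher in DKO against Null control cells. In that control comparison the count lower was 14 with DESeq2, 14 with library size alone, 3 without a filter on low counts, 2 with only the groups compared and 21 with the shared direction of the libraries as a covariate, which also called 7 higher there and 1 higher (Spc25) in the Null response. The covariate was chosen after seeing the data. With library size alone the medians were −3.07 for the DKO response, −0.18 for the control comparison, −2.75 after etoposide and −2.51 for the interaction, and the summed levels were 8151 CPM in Null control and 4807 CPM in Null etoposide. DESeq2's size factors gave 8058 CPM in Null control. Leaving out mitochondrial genome counts gave 9835, 9404, 5669 and 1370 CPM in Null control, DKO control, Null etoposide and DKO etoposide. Leaving these counts out raises CPM by construction, and the cause of the other shifts was not tested.

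With 1 library left out, the Null response had 45 to 51 genes lower, 0 to 0 higher and a median of −0.73 to −0.64, and the DKO response 58 to 59 lower, 0 to 0 higher and −3.24 to −3.12. The control comparison had 1 to 13 lower, 1 to 2 higher and −0.15 to −0.06, DKO against Null after etoposide 58 to 58 lower, 0 to 0 higher and −2.79 to −2.62, and the interaction 56 to 57 lower, 0 to 0 higher and −2.61 to −2.48.

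The labels do not say what a replicate number marks, and not every pair was correlated: deviations of same-numbered libraries correlated between −0.54 and 0.39. The replicate block gave 3 genes lower in the control comparison, and lost the calls of Ncaph in the Null response (adjusted p = 0.0903, limma-trend) and of Cenpm in the interaction (0.0775), both also lost with some libraries left out, and that of Ncaph with library size alone (0.0627), without a filter (0.0532) and with a prior count of 0.5 (0.0519). Every one of the 59 genes had at least 28 counts in each library.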
